A study of Mus musculus with 9 samples.

Results

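The genes described here are 10 immediate early genes of the AP-1 and Egr families, chosen by name: Fos, Fosb, Jun, Junb, Jund, Egr1, Egr2, Egr3, Ier2 and Atf3. They are 10 of the 39179 genes counted in RNA-seq libraries of mouse LSK cells, the bone marrow fraction (Lin- Sca1+ cKit+) that holds stem and early progenitor cells of blood. All 9 libraries came from C57BL/6 mice aged 6 months. The labels give 5 intraperitoneal poly(I:C) injections for every group, which switch on Mx1-Cre, a Cre recombinase under an interferon-inducible promoter that is active in blood cells and in other tissues. The 3 wild-type libraries were Dnmt3a+/+ with Mx1-Cre (wt_Mx+). The 4 mutant libraries were Dnmt3a+/m with Mx1-Cre (cKI_Mx+) and carry a conditional mutant Dnmt3a, a DNA methyltransferase gene, at its own locus. The 2 Cre-negative libraries are labelled cKI_Cre- and given in the design text as Dnmt3a+/-, so in this group the allele and the absence of Cre cannot be told apart. The labels name no pooling and do not say that each library is a separate mouse, so p-values measure the spread between these libraries.

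Immediate early genes are transcribed within minutes of a stimulus, without new protein synthesis, through kinase cascades that act on transcription factors already bound at their promoters. Fos proteins pair with Jun proteins to form AP-1, a transcription factor that binds the letters TGACTCA, and Egr proteins bind GC-rich sites through zinc fingers. In blood stem cells, Egr1 and Junb are known as regulators of quiescence and proliferation, and members of this group are also known to be induced by handling of tissue.

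The promoters of the AP-1 members are shown because these 5 genes, of 1 family, differ in how far they varied between libraries. Each run is the 120 bases before the RefSeq transcript start on GRCm38.p6, 5′ to 3′ on the strand of the gene. Capitals mark matches to the motifs named in the next paragraph. The windows lie at chr12:85473770-85473889 (Fos, plus strand), chr7:19310046-19310165 (Fosb, minus strand), chr4:95052223-95052342 (Jun, minus strand), chr8:84978749-84978868 (Junb, minus strand) and chr8:70697619-70697738 (Jund, plus strand, upstream of the GENCODE start of the gene).
Fos: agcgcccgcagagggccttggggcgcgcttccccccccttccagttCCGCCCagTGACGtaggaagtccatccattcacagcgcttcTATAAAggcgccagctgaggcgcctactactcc
Fosb: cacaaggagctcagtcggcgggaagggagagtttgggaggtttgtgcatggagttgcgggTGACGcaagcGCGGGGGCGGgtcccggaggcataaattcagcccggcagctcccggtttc
Jun: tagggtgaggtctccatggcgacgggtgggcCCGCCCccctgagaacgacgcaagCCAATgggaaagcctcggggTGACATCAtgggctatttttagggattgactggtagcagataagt
Junb: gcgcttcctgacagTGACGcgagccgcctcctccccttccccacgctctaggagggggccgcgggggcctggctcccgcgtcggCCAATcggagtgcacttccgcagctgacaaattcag
Jund: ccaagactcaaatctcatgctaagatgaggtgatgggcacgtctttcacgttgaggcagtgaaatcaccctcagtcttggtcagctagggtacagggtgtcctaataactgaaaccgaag

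Motifs were searched on both strands in the 250 bases before the start, in 7 members and in all 32851 promoters of the table. No RefSeq promoter entry was used for Egr1, Egr3 and Ier2. The core of the cAMP response element, TGACG, lay at -66 in Fos, -60 in Fosb and -106 in Junb, as well as in Egr2 and in Atf3, and 17.8% of all promoters hold it. This core was added to the search after the sequences had been read. Fos holds a TATA box, TATAAA, at -33, found in 12.4% of promoters. Jun holds TGACATCA, a variant AP-1 site known from its own promoter, at -45, found in 2.93% of promoters. Fosb holds an Egr-type site, GCGNGGGCG, at -50, found in 4.7% of promoters, which overlaps a GC box, GGGCGG, a motif of 32.7% of promoters. A CCAAT box, CCAAT, stood at -65 in Jun and -36 in Junb and in 33.8% of promoters. The Jund window held none of the motifs searched, among them the ETS site CCGGAAG (6.91% of promoters). That window ends at 70697738 and the GENCODE gene starts at 70698949, so the bases next to the GENCODE start were not searched. The CArG box, the element bound by serum response factor, was found before 4 of the 5 Egr2 starts, as 2 distinct elements of which 1 is shared by 3 neighbouring starts, and in 1.47% of all promoters. The full cAMP response element TGACGTCA (1.55% of promoters) and TGACTCA (4.46%) were not found in any of the 7 members. A match is a run of letters and was not measured as a bound site.

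The libraries held 47792306 to 58405879 counts in genes, and 40.5% to 47.3% of all counted reads fell in no gene row. Values below are CPM, counts scaled to library size after TMM adjustment, unless a scale per kb of exon is named. The sorting markers Kit, at 369 to 539 CPM, and Ly6a, which encodes Sca-1, at 27.2 to 44.2 CPM, were present in every library. Dnmt3a stood at 148 to 173 CPM in the wild-type and mutant libraries and at 93.5 to 118 CPM in the Cre-negative ones, and gene counts do not show the mutant base. Replicates were distinct libraries: within a group, the lowest chi-square of any pair was 10.7 times its degrees of freedom. Y-linked transcripts were present in 5 libraries. In bulk samples, fewer cells of a type and less RNA per cell cannot be told apart.

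Fos (ENSMUSG00000021250, chr12:85473890-85477273) encodes the AP-1 subunit c-Fos. Its CPM values were 1.55, 17.7 and 16.5 for the 3 wild-type libraries. They were 10.5 in mutant_824, 24.7 in mutant_827, 2.23 in mutant_829 and 5.68 in mutant_830. They were 62.3 in cre_negative_780 and 6.36 in cre_negative_819, and the libraries of each group keep this order below. Each group thus held high and low libraries, and the ranges of the groups overlapped. The counts behind these values ran from 83 to 2961, so the differences between libraries lie far outside counting error.

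Fosb (chr7:19302696-19310051), whose product is a second Fos-type subunit, followed nearly the order of Fos at lower levels, with only cre_negative_819 and mutant_830 exchanged. Its values were 0.372, 8.11 and 7.5 CPM for wild type, 6.77, 16.7, 0.565 and 2.34 CPM for the mutant libraries, and 32.9 and 1.61 CPM for the Cre-negative ones. The highest library exceeded the lowest 88.2-fold for Fosb and 40.3-fold for Fos. Fosb was the most variable member, with cre_negative_780 highest, as for Fos.

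Jun (chr4:95049034-95052222) encodes c-Jun, the main activating partner of Fos. It stood at 4.12, 26.6 and 31.3 CPM for wild type, 31.1, 53.9, 4.91 and 11.4 CPM for the mutant libraries, and 98.3 and 8.12 CPM for the Cre-negative ones. The library cre_negative_780 was again highest, at 23.9-fold the lowest value. The antisense gene Junos overlaps Jun, at a mean of 1.18 CPM.

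Junb (chr8:84974484-84978718), a Jun protein known to restrain proliferation, covered a narrower range. Its values were 3.09, 5.58 and 6.17 CPM for wild type, 9.1, 6.7, 3.89 and 7.05 CPM for the mutant libraries, and 12.6 and 1.94 CPM for the Cre-negative ones. The lowest value was in cre_negative_819 and the highest in cre_negative_780, so the 2 libraries of 1 group spanned the whole 6.48-fold range. Exons of Prdx2, on the opposite strand and at a mean of 261 CPM, overlap Junb. The kit marks strand, but whether the counting used it is not given in the sources used here. The Junb values are therefore uncertain.

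Jund (chr8:70698949-70700616), the Jun family gene expressed most evenly across cell states, varied least among the AP-1 members. It stood at 7.43, 7.93 and 8.59 CPM for wild type, 9.24, 10.4, 7.54 and 8.34 CPM for the mutant libraries, and 16.7 and 6.5 CPM for the Cre-negative ones. Outside cre_negative_780 every value lay between 6.5 and 10.4 CPM.

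Egr1, a zinc finger factor induced by growth factor signalling, stood at 1.96, 1.39 and 2.57 CPM for wild type, 3.15, 5.39, 0.989 and 2.68 CPM for the mutant libraries, and 10.3 and 1.52 CPM for the Cre-negative ones. Egr2 (chr10:67535475-67542188), a related factor with roles in myeloid and lymphoid cells, was near the limit of these libraries, with 9 to 29 counts in each. It stood at 0.242, 0.562 and 0.208 CPM for wild type, 0.2, 0.25, 0.318 and 0.551 CPM for the mutant libraries, and 0.19 and 0.44 CPM for the Cre-negative ones. The library cre_negative_780, highest for Egr1, was lowest for Egr2. Egr3 had 1 count in cre_negative_819 and 0 in the other libraries. A count of 0 allows up to 3 counts, or 0.053 to 0.0631 CPM in these libraries, for counting error only.

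Ier2 (chr8:84661331-84662852), a short-lived nuclear protein gene induced with Fos, stood at 7.23, 11.5 and 14.2 CPM in wild type. The mutant libraries were at 17.4, 17.3, 8.34 and 12.4 CPM and the Cre-negative ones at 29.4 and 7.03 CPM. Atf3, a stress-induced repressor of the ATF family that dimerizes with Jun proteins, had at most 18 counts. Its values were 0.168, 0.12 and 0 CPM for wild type, 0.16, 0.322, 0.23 and 0.038 CPM for the mutant libraries, and 0 and 0.22 CPM for the Cre-negative ones. The library cre_negative_780, which held the most Fos, Fosb, Jun, Junb, Jund, Egr1 and Ier2, had no count of Atf3.

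**Figure D1:**
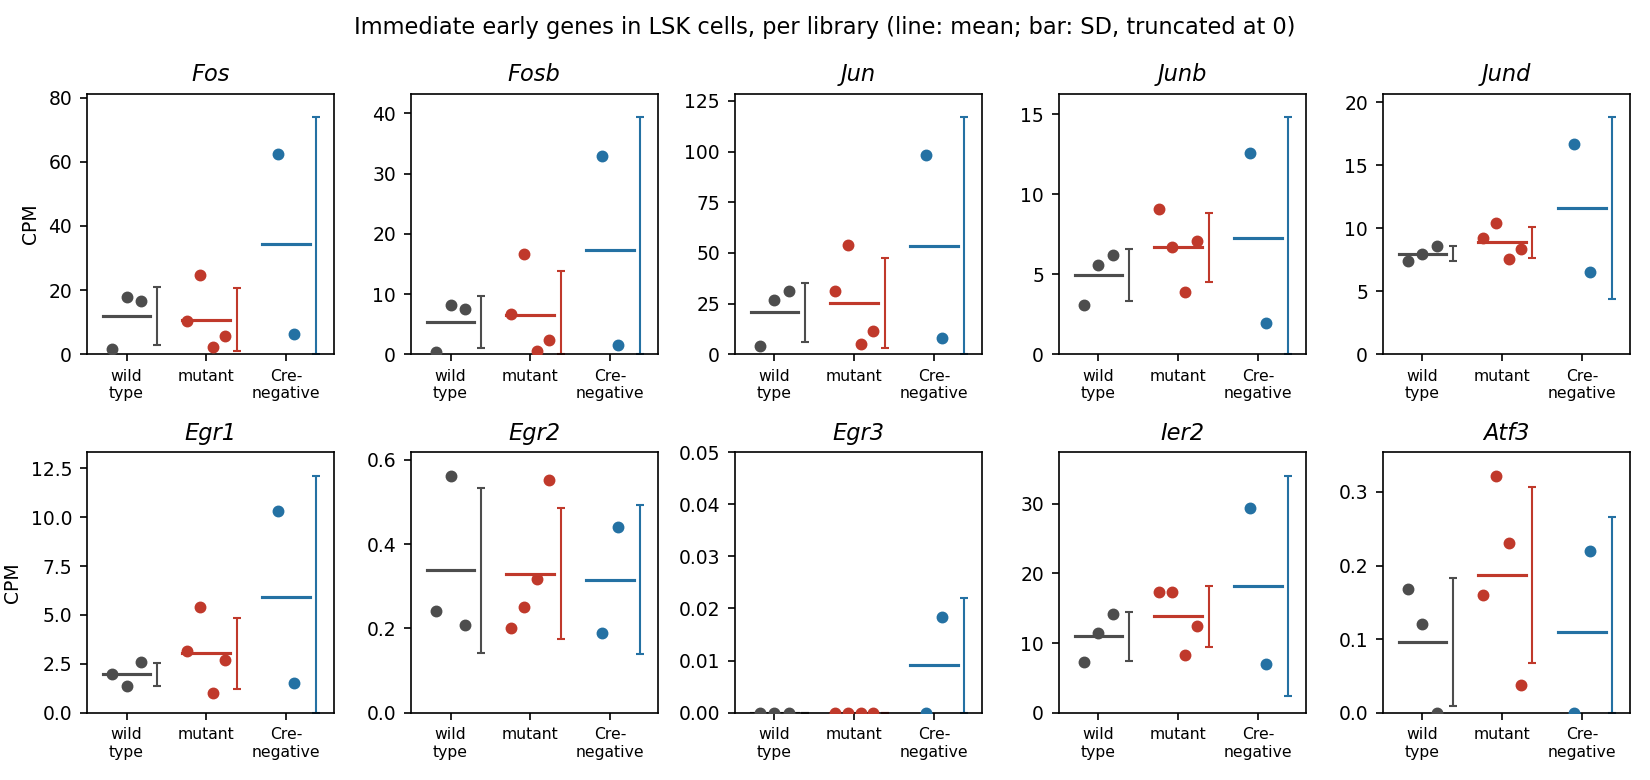
CPM of each of the 10 members (y axis, linear from 0) by group (x axis), with 1 point for each library, a line at the group mean and a bar for the SD, truncated at 0. The groups overlap in every panel, and cre_negative_780 is the highest point in 7 panels.

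Per kb of exon, Jun had the highest mean level over the 9 libraries, 9.4 CPM per kb (range 1.29 to 30.8), followed by Ier2 at 9.11 (4.62 to 19.3), Fos at 6.97 (0.657 to 26.5) and Jund at 5.51 (3.9 to 10). The order of these 4 was not stable: Jun exceeded Ier2 in 4 libraries, Ier2 exceeded Fos in 8, and Fos exceeded Jund in 4. Jund exceeded Junb (mean 2.71 CPM per kb) in 9 of 9 libraries and Junb exceeded Fosb (1.37) in 9 of 9. The place of Junb in this order is uncertain, because its values are, as given above. Fosb lay above Egr1 (0.743) in 5 libraries, and Egr1 lay above Egr2 (0.0968) in 9. Egr2 and Atf3 (0.0648) were not separated, with Egr2 higher in 5 libraries.

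The make-up of the AP-1 families changed with the level. Among Fos family mRNA per kb, Fos itself made up 18%, 63.2% and 62.1% for wild type, 51.5%, 67.5%, 22% and 41.7% for the mutant libraries, and 74.9% and 47.1% for the Cre-negative ones. Fosl2, a Fos-type subunit that is not among the 10 members, stayed between 1.69 and 2.87 CPM per kb in all libraries. Its share was 50.2% in mutant_829, where it was the largest Fos family component, and 8.11% in cre_negative_780. In the Jun family the share of Jun was 19.9% in mutant_829 and 66.5% in cre_negative_780, and that of Jund 58.3% and 21.6% in the same libraries. Among the mutant and Cre-negative libraries, Jund was the largest Jun family component in mutant_829, mutant_830 and cre_negative_819. The summed Fos family ran from 3.65 to 35.4 CPM per kb and the summed Jun family from 7.09 to 46.3. The sums and shares of the Jun family include the uncertain Junb values.

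**Figure D2:**
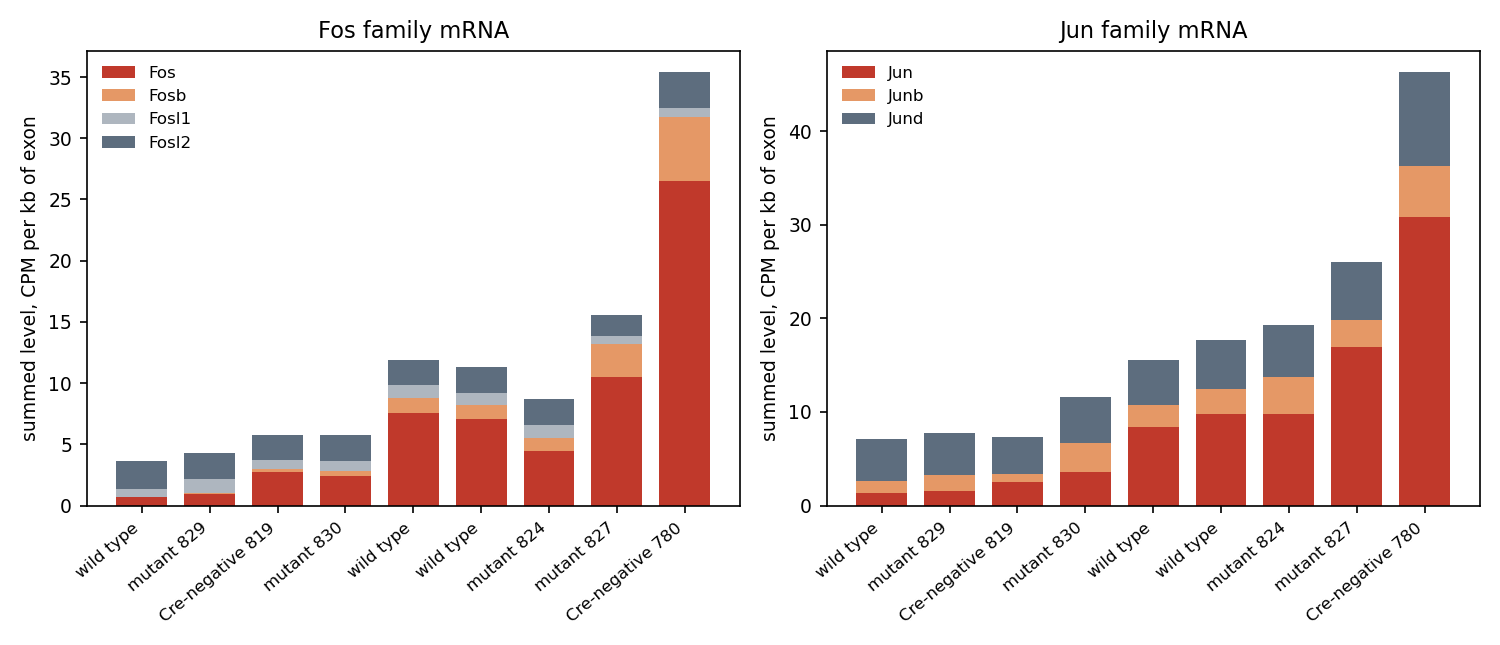
Summed mRNA level of the Fos family (left) and Jun family (right) in CPM per kb of exon (y axis, linear from 0) in each library (x axis), with stacked bars for the genes. Fosl2 and Jund keep similar heights across most libraries, while the Fos, Fosb and Jun segments are small in the libraries on the left and tallest in cre_negative_780.

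Several members varied widely between libraries of 1 group. Within wild type the highest library exceeded the lowest 21.8-fold for Fosb, 11.4-fold for Fos and 7.6-fold for Jun. Within the mutant the same ratios were 29.6, 11.1 and 11, and between the Cre-negative libraries 20.4, 9.81 and 12.1. Junb, Ier2 and Jund differed 2.0-fold, 1.97-fold and 1.16-fold within wild type, 2.34-fold, 2.09-fold and 1.38-fold within the mutant, and 6.48-fold, 4.18-fold and 2.57-fold between the Cre-negative libraries. The within-group SD of log2(CPM + 0.5) was 2.0 for Fosb, 1.71 for Jun and 1.68 for Fos, ranks 7, 8 and 9 from the highest of the 18576 genes tested. The genes above them were Xist and the Y-linked genes Ddx3y, Uty, Eif2s3y and Kdm5d, all of which mark sex, and BC018473. Egr1 (SD 0.93), Junb (0.82) and Ier2 (0.72) ranked 152, 230 and 338. Jund (0.4), Egr2 (0.29) and Atf3 (0.27) ranked 1978, 4992 and 5949, nearer to but still above the median over all genes, 0.21. The 0.5 added before the log understates the spread of Egr2 and Atf3. The median was 0.82 over the 9 members tested and 0.29 over 35 other immediate early genes. Among marker lists of other cells it was higher only for 12 mature neutrophil markers, at 1.09, and 13 erythroid markers, at 0.89. It was 0.56 for B cell, 0.41 for megakaryocyte and platelet, and 0.35 for monocyte, macrophage and dendritic cell markers. For stromal and endothelial cell markers it was 0.33, and for T and NK cell markers 0.29.

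**Figure D3:**
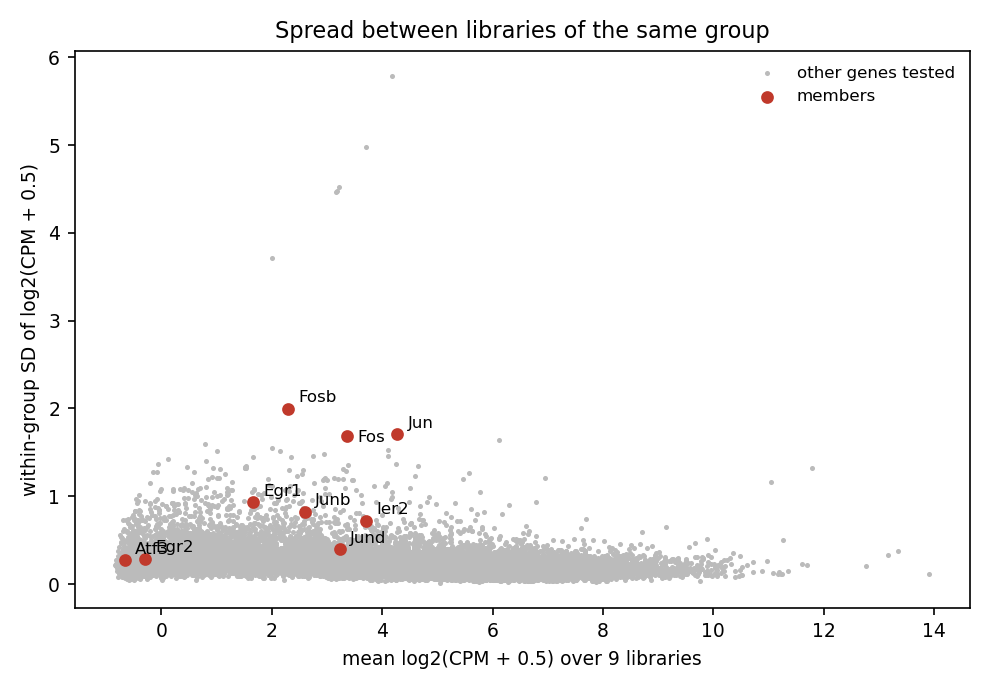
Within-group SD of log2(CPM + 0.5) (y axis) against the mean log2(CPM + 0.5) over 9 libraries (x axis), with 1 point for each of the 18576 genes tested and the members in red. Fosb, Jun and Fos stand above nearly all genes of their level, and Jund, Egr2 and Atf3 lie within the cloud.

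Fos and most other members were high and low in the same libraries. Pearson's r of log2 CPM with Fos over 9 libraries was 0.99 for Fosb (exact permutation p = 8.27e-06, adjusted over 9 relations 7.44e-05; Spearman's rho 0.98, exact p = 4.96e-05, adjusted 0.000446). For Jun it was 0.97 (exact permutation p = 4.13e-05, adjusted 0.000186; rho 0.93, exact p = 0.00075, adjusted 0.00337). Without the 2 libraries farthest from the median of Fos, r was still 0.97 for Fosb and 0.95 for Jun. On deviations from the group means r was 0.99 for both.

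For the other members the relation was looser and rested more on the extreme libraries. Ier2 had r = 0.87 (exact permutation p = 0.00308, adjusted 0.00923) and rho = 0.72 (exact p = 0.0369, adjusted 0.0829), with r = 0.69 without the 2 libraries. Jund had r = 0.78 (exact permutation p = 0.00734, adjusted 0.0165) and rho = 0.77 (exact p = 0.0214, adjusted 0.0642), with r = 0.61 without them. Egr1 had r = 0.76 (exact permutation p = 0.0161, adjusted 0.029) and rho = 0.58 (exact p = 0.108, adjusted 0.162), with r = 0.65 without them. Junb had r = 0.71 (exact permutation p = 0.032, adjusted 0.048) and rho = 0.58 (exact p = 0.108, adjusted 0.162), with r = 0.44 without them. On deviations from the group means, r was 0.9 for Ier2, 0.82 for Junb, 0.77 for Jund and 0.75 for Egr1. On the same deviations it was -0.23 for Egr2, -0.36 for Atf3 and -0.55 for Egr3. Egr2 (r = -0.23, rho = -0.28) and Atf3 (-0.37, -0.31) showed no relation past the threshold. Their exact permutation adjusted p was 0.613 and 0.419 for r, and 0.521 for rho in both. Egr3 (-0.14, -0.14, exact permutation adjusted p = 0.889 for each) had 1 count, in cre_negative_819, so its test could not pass the threshold. By r, 6 of 9 relations passed the threshold, and by rho 2 of 9, those with Fosb and Jun. The count by r was 2 without cre_negative_780 and 3 without mutant_829.

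**Figure D4:**
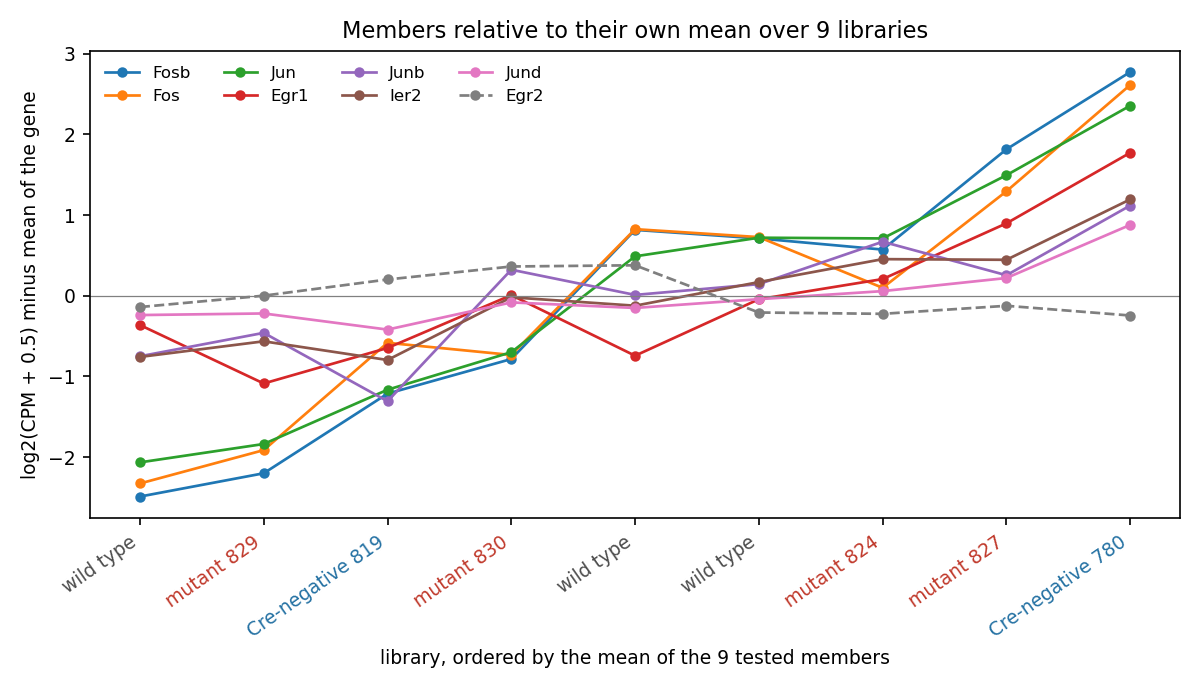
log2(CPM + 0.5) of 8 members minus each member's mean (y axis) in the 9 libraries (x axis), ordered by the mean of the 9 tested members. Libraries of the 3 groups are interleaved along the order, 7 lines end higher on the right than they start on the left, and that of Egr2 does not.

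Against wild type, the mutant libraries showed no change of any member past the threshold. The mean of Fos was 11.9 ± 9.0 CPM for wild type (SD, n = 3) and 10.8 ± 9.89 for the mutant (SD, n = 4). The log2 fold change of Fos was -0.14, with an SE of 0.95 and a 95% interval of -2.24 to 1.96 (edgeR adjusted p = 0.998). Jun averaged 20.7 ± 14.5 and 25.3 ± 22.1 CPM, a log2 fold change of 0.29 (95% interval -1.79 to 2.38). Egr1 averaged 1.97 ± 0.595 and 3.05 ± 1.82 CPM, a log2 fold change of 0.63 (SE 0.64), with an unadjusted edgeR p of 0.347, the lowest of the 9 members tested. Fosb, Junb, Jund, Egr2, Ier2 and Atf3 had log2 fold changes of 0.31, 0.43, 0.15, -0.03, 0.33 and 0.95. The interval was narrowest for Jund, -0.45 to 0.76, and those of Fos, Fosb and Jun include differences of over 2-fold either way.

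With edgeR, 0 of 9 members were called at an adjusted p under 0.05, where 0% of all 18576 genes were, and 0 had an unadjusted p under 0.05, where 3.17% of all genes did. DESeq2 called 0 members and 0.192% of the genes it tested. No member's groups were free of overlap, against 8.32% of all genes. The median log2 fold change of the 9 members was 0.31 (7 higher, 2 lower), beside -0.02 over all genes tested. The directions of Fos, Fosb, Jun and Egr2 changed when single libraries were left out, with Fos between -0.94 and 0.26 and Jun between -0.38 and 0.74.

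The Cre-negative mean was above wild type for 8 of 9 members, and for each of the 8 this rested on 1 library. Fos averaged 34.4 ± 39.6 CPM (SD, n = 2). Its log2 fold change against wild type was 1.53, with an SE of 1.11 and a 95% interval of -0.94 to 3.99 (edgeR adjusted p = 1). The values were 1.69 for Fosb, 1.36 for Jun, 0.55 for Junb, 0.54 for Jund, 0.73 for Ier2, -0.09 for Egr2 and 0.23 for Atf3. Egr1 had the lowest unadjusted edgeR p, 0.0572, with a log2 fold change of 1.58 (SE 0.74, adjusted p = 0.987). With edgeR 0 of 9 members were called (0% of all genes), 0 had an unadjusted p under 0.05 (5.23% of all genes), DESeq2 called 0 (0.316%), and 0 members had groups that did not overlap (11.4%). Without cre_negative_780, which leaves cre_negative_819 alone in its group and assumes that it varies like the others, Fos, Fosb, Jun, Junb, Jund, Egr1 and Ier2 had log2 fold changes of -0.93, -1.75, -1.37, -1.38, -0.33, -0.41 and -0.67. Atf3 had 0 and 0.22 CPM in the 2 Cre-negative libraries, and without cre_negative_819 its log2 fold change was -5.36. The median over the members was 0.73 with both libraries, beside 0.02 over all genes.

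The comparison of the mutant with the Cre-negative group shares its libraries with both others. Fos had a log2 fold change of -1.67 (SE 1.03, 95% interval -3.95 to 0.61, edgeR adjusted p = 0.946), Fosb -1.38, Jun -1.07, Egr1 -0.95, Ier2 -0.4, Jund -0.39, Junb -0.12, Egr2 0.06 and Atf3 0.72. With edgeR 0 of 9 members were called (0% of all genes), 0 had an unadjusted p under 0.05 (5.26%), DESeq2 called 0 (0.144%), and 0 had groups that did not overlap (12.4%). The median over the members was -0.4, beside -0.03 over all genes. Without cre_negative_780 the log2 fold changes of Fos, Fosb and Jun were 0.81, 2.08 and 1.69, and Junb was called, at 1.83 (edgeR adjusted p = 0.0484) against the single cre_negative_819. In that fit 1835 genes were called in all.

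**Figure D5:**
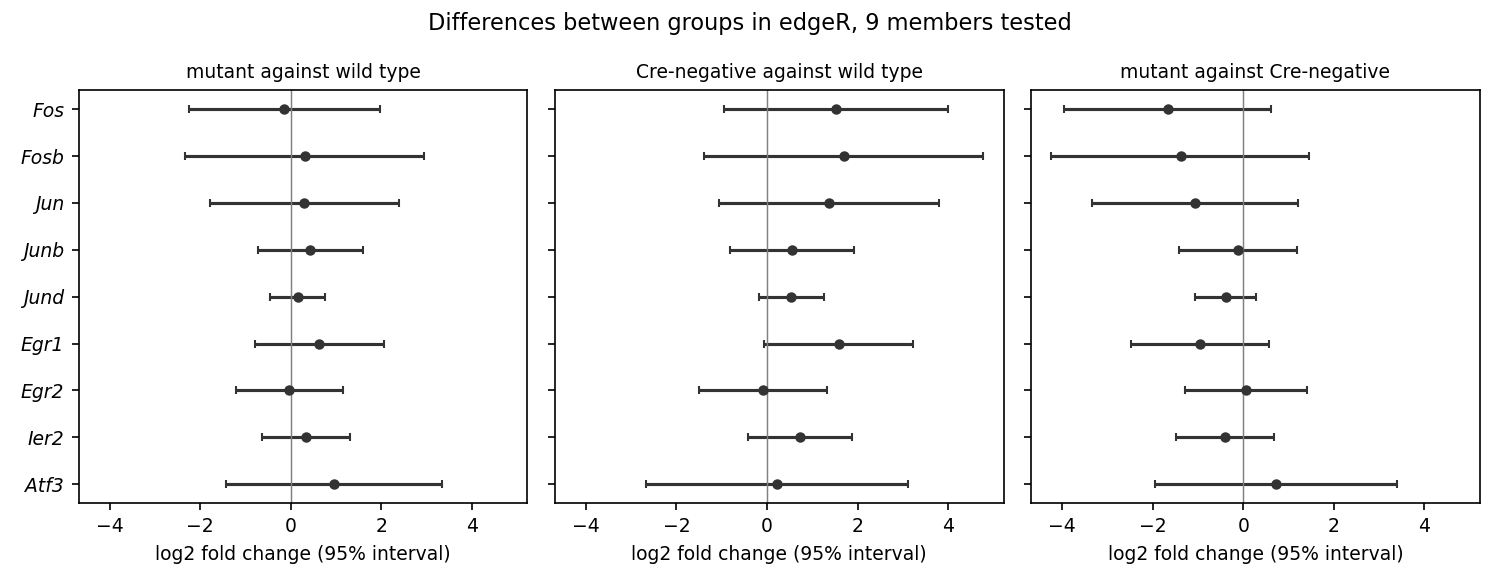
log2 fold change (x axis) of the 9 members tested (y axis) in the 3 comparisons, with points for the edgeR estimate and bars for its 95% interval. Every interval includes 0, and those of Fos, Fosb, Jun and Atf3 are the widest.

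Of 14 other AP-1 and dimer partner genes, all tested, 9 were higher and 5 lower in the mutant than in wild type, with a median log2 fold change of 0.09. Atf2, a bZIP partner of Jun, had the lowest p of that list, with 102 ± 9.83 CPM for wild type against 88.8 ± 3.9 for the mutant (edgeR adjusted p = 0.998). Of 40 other immediate early genes 35 were tested, with 25 higher and 10 lower in the mutant (median 0.11) and 27 higher and 8 lower in the Cre-negative group (median 0.16). Over all 18576 genes tested, 8484 were higher and 10092 lower in the mutant, and 9887 higher and 8686 lower in the Cre-negative group. The lowest unadjusted edgeR p values against wild type in the mutant belonged to Gadd45g, a stress-induced growth arrest gene, and Myc, a growth regulator. Gadd45g rested on 0.729 ± 0.0812 CPM (SD, n = 3) for wild type against 1.22 ± 0.283 (SD, n = 4) for the mutant. Myc had 129 ± 11.1 against 152 ± 8.09 CPM. Both had an edgeR adjusted p of 0.998. Klf4, a zinc finger factor of monocytes, stood at 1.33 ± 0.262 CPM in wild type and 2.65 ± 0.593 (SD, n = 2) in Cre-negative libraries (edgeR adjusted p = 0.797). Gadd45a stood at 7.86 ± 1.09 and 13.1 ± 5.24 CPM (edgeR adjusted p = 0.809). Its log2 fold change was 0.73, and 0.24 to 1.06 over the fits that left out 1 library. The highest was without cre_negative_780, which leaves cre_negative_819 alone in its group. Pim1, a kinase gene induced by cytokines, stood at 155 ± 29.2 CPM in Cre-negative and 245 ± 50.8 in mutant libraries (edgeR adjusted p = 0.801). The log2 fold change of Pim1 in the mutant against the Cre-negative group was 0.66. It was 0.51 to 0.91 over the fits that left out 1 library, highest without cre_negative_780.

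The 29 genes of upstream kinases and transcription factors had 11 higher and 18 lower in the mutant than in wild type, with a median of -0.04. Rps6ka3, the kinase RSK2 of the ERK pathway, had the lowest p of that list, with means of 432 ± 132, 310 ± 24.7 and 248 ± 47.3 CPM for wild type, mutant and Cre-negative libraries (edgeR adjusted p = 0.998 and 0.792 against wild type). Mapk9, the stress kinase JNK2, stood at 113 ± 3.89 CPM for wild type, 111 ± 2.19 for the mutant and 137 ± 37.1 for the Cre-negative group. Its log2 fold change in the mutant against the Cre-negative group was -0.3 (edgeR adjusted p = 0.912), -0.51 without cre_negative_780 and 0.04 without cre_negative_819. Atf1, a factor that binds cAMP response elements, had 58.8 ± 13.3 CPM in the Cre-negative group against 48.1 ± 1.08 in the mutant (edgeR adjusted p = 0.912). Its log2 fold change was -0.29, and -0.46 to -0.01 over the fits that left out 1 library. Ep300, a histone acetyltransferase gene, had 92.4 ± 39.1 CPM for wild type against 66.3 ± 7.07 for the mutant (edgeR adjusted p = 0.998). The 9 genes of Egr corepressors and of Fos or Jun turnover had 2 higher and 7 lower, with a median of -0.06. Hnrnpd, whose product AUF1 binds AU-rich elements of short-lived mRNAs, had 101 ± 9.64 CPM for wild type against 86.1 ± 5.42 for the mutant (edgeR adjusted p = 0.998). Of 15 heat shock chaperone genes, another stress-responsive list, 14 were tested and 13 were lower in the mutant than in wild type, with a median of -0.28. Of all 18576 genes tested, 10092 were lower in this comparison. Dnajb1, an Hsp40 gene, had 116 ± 9.39 CPM for the Cre-negative group against 95.9 ± 5.32 for the mutant (edgeR adjusted p = 0.856). Hspa1a, an inducible Hsp70 gene, had 0.881 ± 0.37 CPM for wild type against 0.0582 ± 0.0582 for the mutant (edgeR adjusted p = 0.799, DESeq2 adjusted p = 0.000384, limma adjusted p = 0.0425). Its near-identical copy Hspa1b stood at 0.921 ± 0.229 and 0.146 ± 0.0594 CPM (edgeR adjusted p = 0.998, DESeq2 adjusted p = 0.0383, limma adjusted p = 0.0425). Reads can be split between the copies. With edgeR no gene of the 5 lists was called in any of the 3 comparisons. In the mutant against wild type, an unadjusted edgeR p under 0.05 was reached by 2 of 35 other immediate early genes, 1 of 29 upstream genes and 4 of 14 heat shock genes, beside 3.17% of all genes. In the Cre-negative group against wild type it was reached by 7 of the 35 (5 higher, 2 lower) and by 1 upstream gene, beside 5.23% of all genes. In the mutant against the Cre-negative group it was reached by 8 of the 35 (2 higher, 6 lower), 1 upstream gene and 2 heat shock genes, beside 5.26% of all genes. In the Cre-negative group against wild type, 9 of 14 other AP-1 genes, 13 of 29 upstream genes, 7 of 9 corepressor and turnover genes and 6 of 14 heat shock genes were higher. In the mutant against the Cre-negative group the numbers higher were 5, 11, 2 and 2, and 11 of 35 for the other immediate early genes. Of all 18576 genes tested, 9887 were higher in the Cre-negative group against wild type, and 8219 in the mutant against the Cre-negative group.

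Likeness to the members was measured as Pearson's r, over the 9 libraries, between a gene's log2 CPM and the mean of the 9 tested members centred per gene, as a description of 11446 genes at 1 CPM or more. The most alike was Dusp1 (r = 0.992), a phosphatase gene that is itself an immediate early gene and dampens MAP kinases. Dusp1 stood at 6.13, 15.9 and 16.9 CPM for wild type, 17.2, 28.7, 6.52 and 9.86 CPM for the mutant libraries, and 49.8 and 6.74 CPM for the Cre-negative ones, with its highest value in the same library as Fos. Arhgdib (r = 0.972) covered only 250 to 330 CPM. Nacc2 (0.951), Ccdc181 (0.938) and Pfdn5 (0.937), a prefoldin subunit gene, completed the 5 most alike. An r of at least 0.8 was reached by 2.13% of candidates. It was reached by 8 of 33 other immediate early genes (Dusp1, Ier5, Zfp36, Klf10, Rhob, Tnfaip3, Dusp6 and Nfkbia, named after their values were seen), by 1 of 26 upstream genes, and by 0 of 12 other AP-1 genes and 0 of 12 heat shock genes. The median r was 0.59 over the other immediate early genes, 0.4 over the other AP-1 genes, -0.27 over the heat shock genes and 0.05 over all candidates. Among marker lists of other cells it was 0.53 over 4 T and NK cell markers, 1 of them at 0.8 or more, and 0.4 over 11 mature neutrophil markers. It was 0.24 over stromal and endothelial cell markers and 0.15 over B cell markers. The median was below 0 for the monocyte, macrophage and dendritic cell (-0.1), megakaryocyte and platelet (-0.4) and erythroid (-0.49) markers. The points share libraries, depth and scaling.

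Markers of other cells and the read classes also differed between libraries. The summed level of the 10 members was 26.1, 79.5 and 87.1 CPM for wild type, 87.7, 136, 29.0 and 50.4 CPM for the mutant libraries, and 263 and 33.8 CPM for the Cre-negative ones. The 12 mature neutrophil markers summed to 62.5, 61.1 and 172 CPM, to 140, 230, 163 and 434 CPM, and to 339 and 49.0 CPM in the same order. The library cre_negative_780 was thus high in both, while mutant_830 had the highest neutrophil sum and a Fos value of 5.68 CPM. The 13 erythroid markers summed to 3970 CPM in cre_negative_819 and to 872 to 1120 CPM elsewhere, and the 15 LSK markers to 2850 CPM in cre_negative_819 and 3320 to 3900 elsewhere. The 12 monocyte, macrophage and dendritic cell markers summed to 503 to 605 CPM, 10 B cell markers to 38.6 to 72.5 and 11 T and NK cell markers to 92.3 to 147. The 9 megakaryocyte and platelet markers summed to 305 to 468 CPM and the 10 stromal and endothelial cell markers to 229 to 304 CPM. None of these marker lists held a gene that stayed under 0.1 CPM in every library. Reads outside annotated features ran from 13.6% to 23.1%, with 18.2% in cre_negative_780. The part of these differences in the values of the members was not tested.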

How the data were processed

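RNA-seq of total RNA, with ribosomal RNA removed and a stranded kit per the labels' protocols, was deposited as raw counts per gene. The submitters' processing notes name STAR, HTSeq 0.5.3p3, DESeq2, mm10 and GRCm38, and no annotation or strand setting (not given in the sources used here). The authors' normalized table was not used. The 5 rows that name no gene (40.5% to 47.3% of reads) were left out. Counts were tested with edgeR 4.0.16 (quasi-likelihood, filterByExpr, TMM, all 9 libraries, Benjamini-Hochberg adjustment at 0.05), which kept 18576 genes and 9 of 10 members. Alternatives were RLE and upper-quartile scaling, other filters, pairs of groups alone, a Y-linked covariate, DESeq2 1.42.0, limma 3.58.1 and leaving out each library. Relations with Fos were tested over 362880 orders, two-sided. Tests were run first on simulated data. Besides the members, the rule named at most the 2 genes of lowest p per list and comparison and the 5 genes most like the members. A gene it names is not reported here. The members and lists were chosen with earlier results of these data known. Gene positions and exon lengths come from GENCODE on GRCm38 and promoters from RefSeq GRCm38.p6.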

Additional observations from a re-analysis of the deposited data

Results flagged for a closer look

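Fosl2, the Fos-type gene whose share of Fos family mRNA is given above, had 1 mutant library apart from the other 3. It stood at 16.4 CPM in mutant_827 and at 20.3, 20.9 and 20.8 CPM in mutant_824, mutant_829 and mutant_830. The gap from mutant_827 to its neighbour was 0.866 of the range of the 4 libraries, above Dixon's 95% critical value for 4 values. It was 1 of 35 genes examined in the mutant group, and chance alone marks about 1 in 20 groups.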

How the results depend on the processing

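No member was called under any alternative except Junb, in 1 fit that left out a library. The members called in the mutant against the Cre-negative group numbered 0 to 1 over the fits that left out 1 library, with the 1 without cre_negative_780. Over all genes, DESeq2 called 38, 56 and 27 genes in the mutant against wild type, Cre-negative against wild type and mutant against Cre-negative, and limma called 13 in the first. Leaving out 1 library gave 0 to 650 and 0 to 1835 calls in the latter 2 comparisons. The relations of Fos past the threshold numbered 2 to 6 over the fits without 1 library.

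Mutant against wild type, log2 fold changes of opposite sign were 0.01 (upper-quartile scaling) and 0.54 (limma) for Egr2, 0.54 (Y-linked covariate) for Fos, and with limma -1.11 for Fosb, -0.88 for Jun and -0.07 for Ier2. In Cre-negative against wild type limma gave -0.26 for Junb and 0.27 for Egr2. Junb in the mutant against the Cre-negative group was 0.21 with the Y-linked covariate and 0.36 with limma. The cause was not tested.

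Leaving out 1 library in turn gave these lowest and highest log2 fold changes where the sign changed. In the mutant against wild type they were -0.94 to 0.26 for Fos, -0.71 to 0.75 for Fosb, -0.38 to 0.74 for Jun, -0.37 to 0.55 for Egr2 and -0.53 to 0.06 for Atf7. In Cre-negative against wild type they were -0.93 to 2.38 for Fos, -1.75 to 2.62 for Fosb, -1.37 to 2.24 for Jun, -1.38 to 1.33 for Junb, -0.33 to 1.05 for Jund, -0.41 to 2.37 for Egr1, -0.83 to 0.45 for Egr2 and -0.67 to 1.41 for Ier2. There, Atf3 gave -5.36 to 1.14, Nab2 -0.77 to 1.06, Maff -0.56 to 1.04, Itch -0.07 to 0.28 and Mapk9 -0.04 to 0.5. In the mutant against the Cre-negative group they were -2.5 to 0.81 for Fos, -2.4 to 2.08 for Fosb, -1.93 to 1.69 for Jun, -0.89 to 1.83 for Junb, -0.88 to 0.5 for Jund, -1.73 to 1.05 for Egr1, -0.36 to 0.82 for Egr2 and -1.06 to 1.02 for Ier2. There, Atf3 gave -0.18 to 6.33, Fosl2 -0.47 to 0.07, Elavl1 -0.35 to 0.13, Itch -0.28 to 0.06 and Mapk9 -0.51 to 0.04. A lone Cre-negative library is assumed to vary like the other groups.

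No paired analysis was possible because the library numbers differ between the groups and pair no libraries. Depth limits Egr2, Egr3 and Atf3, which had at most 29, 1 and 18 counts.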
